A study of Mus musculus with 10 samples.

Results

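miR-146a and miR-146b were followed through small RNA sequencing of mouse splenic B-cells as 4 mature microRNAs: the 5p and 3p arms of miR-146a and the 5p and 3p arms of miR-146b. They were chosen by name as the rows of these arms in the microRNA class, and are 4 of the 1302 mature microRNAs in the count table. The cells were CD43- splenic B-cells, that is spleen cells depleted of cells carrying CD43, from wild-type (wt) mice, from mice without the regulatory region downstream of the immunoglobulin heavy chain genes (3′RR-deficient) and from mice without the intronic enhancer of the same locus, Eµ (Eµ-deficient, named EµMAR-deficient in the methods). The mice, of the same inbred background, were between 8 and 12 weeks old per the study's methods, and each library was made from a pool of 2 mice per the labels. Cells were non-stimulated (NS) or stimulated with LPS at 5 µg per ml (the labels also give 5 mg per ml in 1 field), and per the labels both kinds of culture lasted 2 days, whereas the methods, written for long RNA, speak of cells before and after stimulation. If the NS cells here were taken before culture, LPS and time in culture cannot be told apart. The wt and 3′RR-deficient groups had 2 libraries in each condition and the Eµ-deficient groups 1, so each Eµ-deficient value is that of 1 pool.

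miR-146 microRNAs are known as feedback regulators of innate signalling. LPS is sensed by Toll-like receptor 4, the signal reaches NF-κB through IRAK1 and TRAF6, NF-κB activates transcription of the miR-146a gene, and the mature 5p arm represses the messenger RNAs of TRAF6 and IRAK1. Each hairpin precursor gives a 5p and a 3p strand, of which 1 is usually kept on Argonaute while the other is degraded. The seed, bases 2 to 8 of the mature strand, is the main determinant of target choice.

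The 4 mature sequences are shown because the results turn on how far the 5p arms can be told apart. They are those of RefSeq, written 5′ to 3′ with the seed in capitals.
mmu-miR-146a-5p: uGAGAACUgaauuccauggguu
mmu-miR-146b-5p: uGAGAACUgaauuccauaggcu
mmu-miR-146a-3p: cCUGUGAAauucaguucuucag
mmu-miR-146b-3p: gCCCUAGGgacucaguucuggu
The 5p arms share their seed and are identical at 20 of 22 positions. They differ by G18A and U21C, with positions counted from the 5′ end and the base of miR-146a given first. A read of full length separates the 5p arms by these bases, whereas a read that lost its 3′ end before position 18 fits both. How the authors assigned such reads is not given in the sources used here, so the split between the 5p arms is uncertain to that extent. Among the 1093 mature microRNAs of the table with a RefSeq sequence, these 2 arms alone carried the seed GAGAACU. The 3p arms have different seeds, and each 3p seed was found in 1 mature microRNA. GC content was 40.9% in both 5p arms and in miR-146a-3p, and 59.1% in miR-146b-3p.

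The hairpins are shown to place both arms in their precursor, with the arms in capitals.
Mir146 hairpin: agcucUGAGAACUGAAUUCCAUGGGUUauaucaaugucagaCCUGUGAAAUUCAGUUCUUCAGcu
Mir146b hairpin: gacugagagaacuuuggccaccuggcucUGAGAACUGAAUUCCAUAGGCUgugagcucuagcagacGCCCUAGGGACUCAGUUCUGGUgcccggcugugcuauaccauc
In GRCm38.p6, the Mir146 hairpin lies on chromosome 11 at chr11:43374397-43374461 on the minus strand. Apart from its own exon it overlaps no annotated gene, and the nearest genes are the lincRNA Gm12148 at 11021 bp and Pttg1 at 45789 bp. The Mir146b hairpin lies at chr19:46342762-46342870 on the plus strand, inside a transcript of the protein-coding gene Mfsd13a on the same strand and outside its exons, that is in an intron. The 5p arm of miR-146a is at chr11:43374435-43374456 and its 3p arm at chr11:43374399-43374420. The arms of miR-146b are at chr19:46342790-46342811 (5p) and chr19:46342828-46342849 (3p).

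Libraries held between 3482540 and 18144016 counts, of which the microRNA class took between 51.4% and 82.1%. The second NS replicates of both wt and 3′RR-deficient cells were the 2 smallest libraries and stood apart from the first: miR-142a-5p, listed here among lymphocyte markers, was at 177520 and 7357 CPM (microRNA counts scaled by TMM to a common library size) in the wt NS replicates and at 84922 and 6191 CPM in the 3′RR-deficient ones. The microRNAs of the lymphocyte list did not move together between these replicates. miR-142a-3p was lower in the second replicates like miR-142a-5p, whereas miR-150-5p was higher, at 39878 and 56331 CPM in wt and 47852 and 51535 CPM in 3′RR-deficient cells, as was miR-181a-5p, at 22472 and 43884 CPM and 29558 and 46255 CPM. Fits over both conditions and the LPS comparisons of the ratios are therefore also given without these 2 libraries, an alternative added after the data were seen. All 5 microRNAs of the lymphocyte list (miR-150-5p, miR-142a-3p and -5p, miR-181a-5p, miR-342-3p) were present in each library, with a summed level from 86673 to 254530 CPM in NS and from 56247 to 101810 CPM in LPS libraries. The highest sum, in wt NS replicate 1, was largely that of miR-142a-5p (177520 CPM). The myeloid microRNA miR-223 (both arms) went from between 479 and 5032 CPM in NS to between 82.4 and 512 CPM in LPS libraries. The 3 erythroid microRNAs summed to between 2500 and 7919 CPM in NS and between 138 and 3567 CPM in LPS libraries, and the 5 of stroma and endothelium to between 210 and 1102 CPM and between 73.0 and 956 CPM. Of the 15 marker microRNAs 1, the stromal miR-145a-5p, was at 0 in a library, in both 3′RR-deficient LPS libraries. The Eµ-deficient libraries had the highest myeloid and erythroid sums in each condition. The part of these cells in the results was not tested, and in bulk RNA fewer cells of a type and less RNA per cell cannot be told apart.

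miR-146a-5p was the abundant form and one of the leading microRNAs of these cells. It took 2.62% and 1.57% of the microRNA counts in the wt NS replicates, 3.52% and 2.01% in the 3′RR-deficient NS replicates and 6.42% in Eµ-deficient NS cells. With LPS it took 10.4% and 5.75% in wt, 4.73% and 4.54% in 3′RR-deficient and 5.40% in Eµ-deficient cells. Among the mature microRNAs it ranked between 4 and 16 in NS libraries and between 2 and 7 in LPS libraries. Wilson 95% intervals of these shares were narrow, for example 2.61 to 2.62% in wt NS replicate 1 and 1.56 to 1.59% in wt NS replicate 2, but cover no more than counting error, as amplified reads without molecular identifiers are not separate molecules. The replicates of a group lay far outside them.

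In CPM, miR-146a-5p was at 36343 and 11658 in wt NS, 44817 and 15107 in 3′RR-deficient NS and 54083 in Eµ-deficient NS cells. In LPS libraries it was at 89625 and 72354 in wt, 45136 and 64786 in 3′RR-deficient and 44057 in Eµ-deficient cells. Each of the 4 LPS libraries of wt and 3′RR-deficient cells lay above each of their 4 NS libraries, narrowly so for the lowest of the former (45136 CPM) and the highest of the latter (44817 CPM). The same order was seen for 18.9% of the 720 features tested over these libraries. The Eµ-deficient cells did not follow this order, being higher without than with LPS. In both genotypes the low NS value was that of the second replicate. By mean level the groups ran from wt LPS through 3′RR-deficient LPS, Eµ-deficient NS, Eµ-deficient LPS and 3′RR-deficient NS to wt NS. The wt LPS libraries were above every other library, whereas each of the other neighbours in this order overlapped or included a group of 1 library.

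miR-146b-5p, the paralogue with the same seed, was lower throughout. Its level was 1820 and 383 CPM in wt NS, 1087 and 389 CPM in 3′RR-deficient NS and 2967 CPM in Eµ-deficient NS cells. With LPS it was 1347 and 1127 CPM in wt, 714 and 1166 CPM in 3′RR-deficient and 2020 CPM in Eµ-deficient cells. NS and LPS libraries overlapped in wt and in 3′RR-deficient cells, whereas both Eµ-deficient libraries were above all 8 others, as was the case for 7.49% of the 988 features tested over 10 libraries. Among mature microRNAs it ranked between 41 and 90.

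The 3p arms were rare. miR-146a-3p, the strand opposite the active one, had 38 and 0 counts in wt NS, 31 and 0 in 3′RR-deficient NS and 20 in Eµ-deficient NS cells. In LPS libraries it had 172 and 312 counts in wt, 75 and 334 in 3′RR-deficient and 153 in Eµ-deficient cells. On the CPM scale this is 4.27 and 0 against 35.8 and 47.0 in wt, 4.09 and 0 against 16.6 and 45.3 in 3′RR-deficient, and 2.07 against 13.4 in Eµ-deficient cells. Each of the 5 LPS libraries was above each of the 5 NS libraries, as was the case for 11.2% of the 988 features tested. The counts of 0 belong to the small libraries, where 3 counts would be 1.35 (wt) and 1.18 (3′RR-deficient) CPM before TMM scaling, so absence was not shown.

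miR-146b-3p had 22 and 1 counts in wt NS, 23 and 24 in 3′RR-deficient NS and 88 in Eµ-deficient NS cells. With LPS it had 17 and 20 counts in wt, 0 and 24 in 3′RR-deficient and 41 in Eµ-deficient cells. These are 0.333 to 9.12 CPM in NS and 0 to 3.59 CPM in LPS libraries, and the conditions overlapped. A separate row of the table for the Mir146 hairpin transcript held 2 and 0 counts in wt NS, 5 and 0 in 3′RR-deficient NS, 11 in Eµ-deficient NS, and 5 and 31, 4 and 36, and 43 counts in the same order with LPS. Its NS and LPS values overlapped. No row of the Mir146b hairpin was used here.

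**Figure D1:**
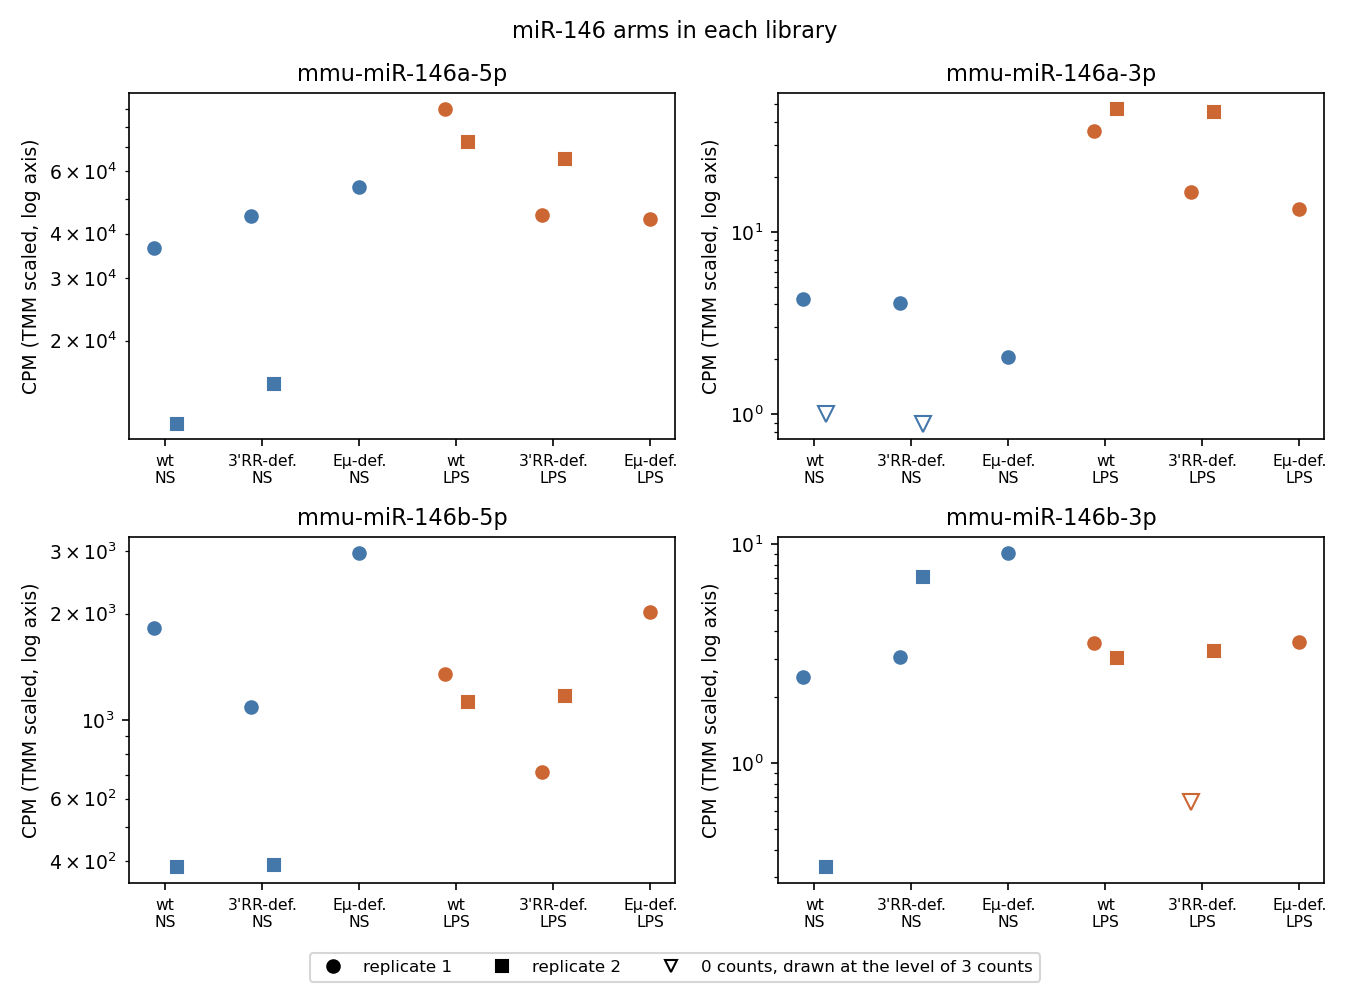
CPM after TMM scaling (log axis, a different range in each panel) of the 4 miR-146 arms in each of the 10 libraries, with NS libraries in blue, LPS libraries in orange, circles for replicate 1, squares for replicate 2 and open triangles for 0 counts drawn at the level of 3 counts. miR-146a-3p separates all LPS libraries (13.4 to 47.0 CPM) from all NS libraries (0 to 4.27 CPM), miR-146a-5p does so in wt and 3′RR-deficient cells alone, and miR-146b-5p is highest in the Eµ-deficient libraries. Of the features tested, 11.2%, 18.9% and 7.49% show these separations, in that order.

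The LPS comparison asked how the miR-146 arms respond to this activator of B-cells. Log2 fold changes are from edgeR's quasi-likelihood test over the microRNA class, with p adjusted by Benjamini-Hochberg over all features tested, and a call is an adjusted p under 0.05. With wt and 3′RR-deficient cells together, 1 of the 4 arms was called, against 21.8% of the 720 features tested. This was miR-146a-3p, which rose by 3.95 on the log2 scale (SE 1.00, 95% interval 1.74 to 6.16, edgeR adjusted p = 0.0193). The call was lost when all RNA classes were tested together (log2 fold change 3.00, adjusted p = 0.105) and without wt LPS replicate 1 (3.90, adjusted p = 0.0533) or replicate 2 (3.85, adjusted p = 0.0539). It held without the second NS replicates, at 2.98 with an edgeR adjusted p of 0.000961, where 26.3% of the features were called.

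miR-146a-5p differed by 1.32 (SE 0.54, 95% interval 0.14 to 2.51, edgeR adjusted p = 0.102) and did not pass. Without the second NS replicates this log2 difference was 0.60 (edgeR adjusted p = 0.262), so its size rests on those libraries. With all RNA classes tested together it was 0.55 (edgeR adjusted p = 0.673). It passed with the DESeq2 Wald test (1.31, adjusted p = 0.0249), which called 34.3% of the features, and with the replicate number as a block (1.52, edgeR adjusted p = 0.0462), which called 21.7%. Other alternatives, of which some called it and some did not, are given in the closing section. miR-146b-5p differed by 0.27 (SE 0.52, interval -0.88 to 1.41, adjusted p = 0.746) and miR-146b-3p by -0.27 (SE 1.19, interval -2.90 to 2.36, adjusted p = 0.880). When the second NS replicates were left out they differed by -0.47 (edgeR adjusted p = 0.282) and -0.41 (adjusted p = 0.801), so the sign of the miR-146b-5p difference depended on those libraries. The intervals leave room for changes of either sign in both miR-146b arms. A rise of CPM without overlap between the 4 LPS and the 4 NS libraries was seen for 2 of the 4 arms, both of miR-146a, and for 18.9% of all features tested.

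In wt cells alone none of the 4 arms was called, and 0.694% of the features were. The wt log2 differences were 1.86 (SE 0.83, interval 0.02 to 3.70, edgeR adjusted p = 0.225) for miR-146a-5p and 4.25 (SE 1.54, interval 0.82 to 7.68, adjusted p = 0.153) for miR-146a-3p. Those of miR-146b were 0.28 (adjusted p = 0.864) for the 5p and 1.24 (adjusted p = 0.687) for the 3p arm. Without wt NS replicate 2 the miR-146a-5p difference was 1.23, and leaving out each of the 8 libraries gave 1.23 to 2.47. For miR-146b-5p the same range was -0.49 to 1.36 and for miR-146b-3p 0.47 to 2.90. The count of 0 is that of this edgeR fit. In it both miR-146a arms had an unadjusted p under 0.05, as had 156 of the 720 features tested. Other settings called miR-146a-3p in wt cells, each with a larger share of features called. The edgeR test did so with replicate blocks set separately for NS and LPS libraries (3.09, adjusted p = 0.0198, 13.8% of features called), without a filter (4.12, adjusted p = 0.00862, 2.78%) and with GC correction (4.21, adjusted p = 0.0413, 9.78%). GC correction with those blocks called both miR-146a-3p (3.46, edgeR adjusted p = 0.00931) and miR-146a-5p (1.64, adjusted p = 0.0311), beside 12.2% of the features. The DESeq2 Wald test called miR-146a-3p (4.24, adjusted p = 0.0250) and 13.6% of the features.

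In 3′RR-deficient cells alone 0 of the 4 arms and 0.972% of the features were called in the same edgeR fit. The log2 differences were 0.79 (SE 0.80, adjusted p = 0.626) for miR-146a-5p and 3.67 (SE 1.51, interval 0.32 to 7.02, adjusted p = 0.215) for miR-146a-3p. The latter alone of the arms had an unadjusted p under 0.05, as had 139 of the 720 features tested. Without a filter edgeR called miR-146a-3p (3.65, adjusted p = 0.0300) and 1.72% of the features. The miR-146a-5p value was 0.08 without 3′RR-deficient NS replicate 2 and 1.59 without replicate 1, and with all RNA classes tested together it was -0.08. miR-146b-5p differed by 0.25 (adjusted p = 0.873) and miR-146b-3p by -1.75 (adjusted p = 0.567), with ranges of -0.43 to 0.99 and -2.46 to -0.76 when each library was left out. For miR-146a-3p the range was 2.66 (without 3′RR-deficient NS replicate 2) to 4.04, and no fold is given without replicate 1 of that group, which leaves it at 0 counts.

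With the Eµ-deficient libraries included, 988 features were tested and 18.8% were called, among them miR-146a-3p and no other arm. It rose by 3.72 (SE 0.85, interval 1.90 to 5.54, edgeR adjusted p = 0.00802). When all RNA classes were tested together the adjusted p was 0.0603, and without the second NS replicates the log2 fold change was 2.96 (adjusted p = 0.000279, 27.2% of features called). miR-146a-5p differed by 1.00 (SE 0.50, interval -0.06 to 2.06, adjusted p = 0.184), miR-146b-5p by 0.10 (adjusted p = 0.917) and miR-146b-3p by -0.49 (adjusted p = 0.787). These differences were, without the second NS replicates, 0.42 (edgeR adjusted p = 0.362), -0.44 (adjusted p = 0.203) and -0.62 (adjusted p = 0.653). Over the 10 libraries miR-146a-3p alone of the 4 arms was higher in every LPS than in every NS library, as were 11.2% of the features.

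**Figure D2:**
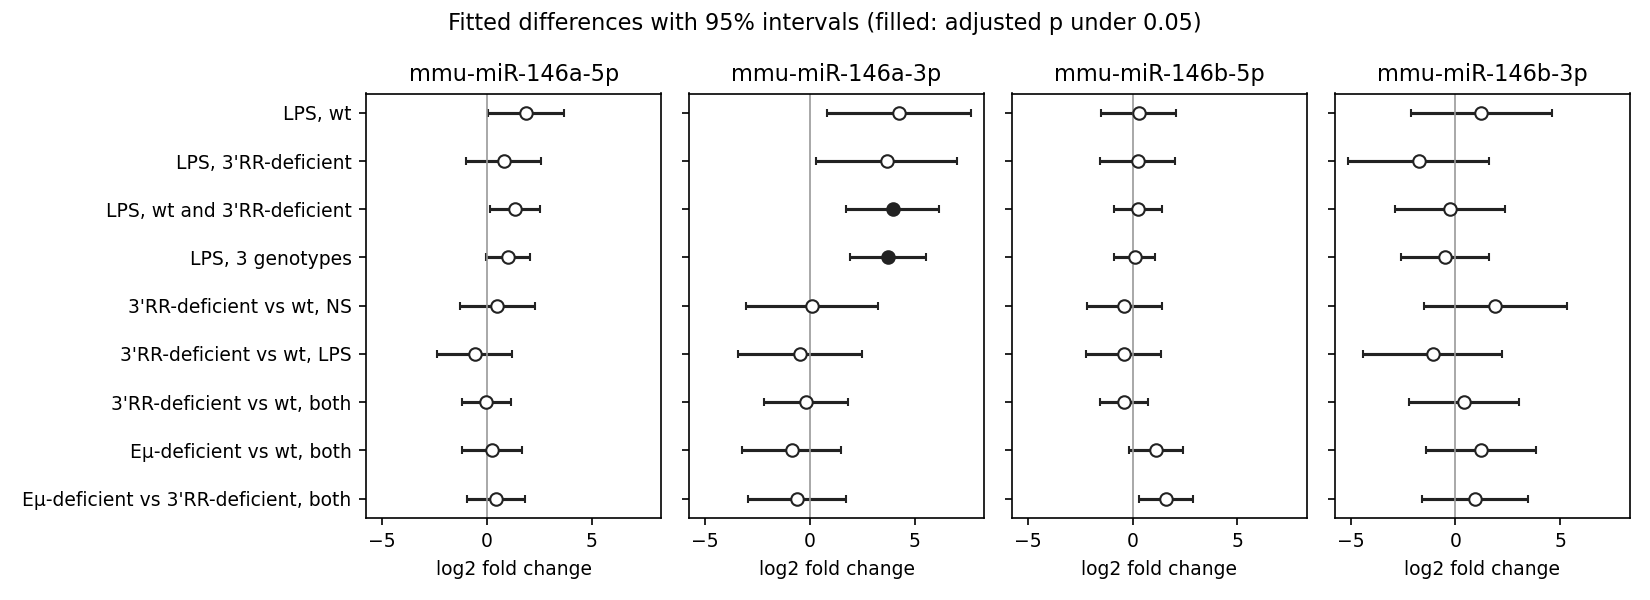
Log2 fold changes of each miR-146 arm in 9 comparisons, with edgeR 95% intervals as bars and filled points for an adjusted p under 0.05. The 2 filled points are those of miR-146a-3p in the LPS comparisons over wt and 3′RR-deficient cells (3.95) and over 3 genotypes (3.72).

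The other microRNAs known from Toll-like receptor and NF-κB responses give the setting of these values. Of a list of 17, with both arms where both were listed, all were tested in the LPS comparison over wt and 3′RR-deficient cells, 6 rose, 4 fell and 7 did not pass, beside 21.8% of all features called. The list's median log2 difference was 1.03, beside 0.07 over all features. As the list was chosen with earlier results of these data known, its counts and medians are descriptive and test nothing. miR-155-3p, from the precursor of the NF-κB-induced and B-cell activating miR-155, rose by 5.56 (SE 0.54, edgeR adjusted p = 0.000184) and miR-155-5p by 2.76 (SE 0.44, adjusted p = 0.00261). miR-21a-3p, the minor strand of a microRNA that increases in activated lymphocytes, rose by 4.10 (SE 0.64, adjusted p = 0.00261). miR-9-5p, which is known to target the NF-κB subunit p50, rose by 3.69 (SE 0.62, adjusted p = 0.00346). The listed myeloid microRNA miR-223-3p changed by -3.49 (SE 0.53, adjusted p = 0.00261) and miR-125b-5p, a repressor of lymphocyte differentiation genes and of tumour necrosis factor, by -3.24 (SE 0.52, adjusted p = 0.00261). The fall of miR-223-3p is also that of the myeloid marker list given above.

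Beside them, miR-146a-3p had a fold change between those of miR-21a-3p and miR-9-5p, and the miR-146a-5p difference of 1.32 lay below those of miR-155-5p and miR-9-5p. In wt cells alone 1 of the 17 rose and 0 fell (0.694% of all features called), and the same counts were found in 3′RR-deficient cells alone (0.972%). Over all 3 genotypes 7 rose and 4 fell (18.8%), with a median of 1.34 beside 0.09 over all features. 0 of the 17 were called in any comparison of 3′RR-deficient with wt cells by edgeR. In Eµ-deficient cells 1 was higher than in wt (1.62% of all features called) and 2 were higher than in 3′RR-deficient cells (2.02%).

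**Figure D3:**
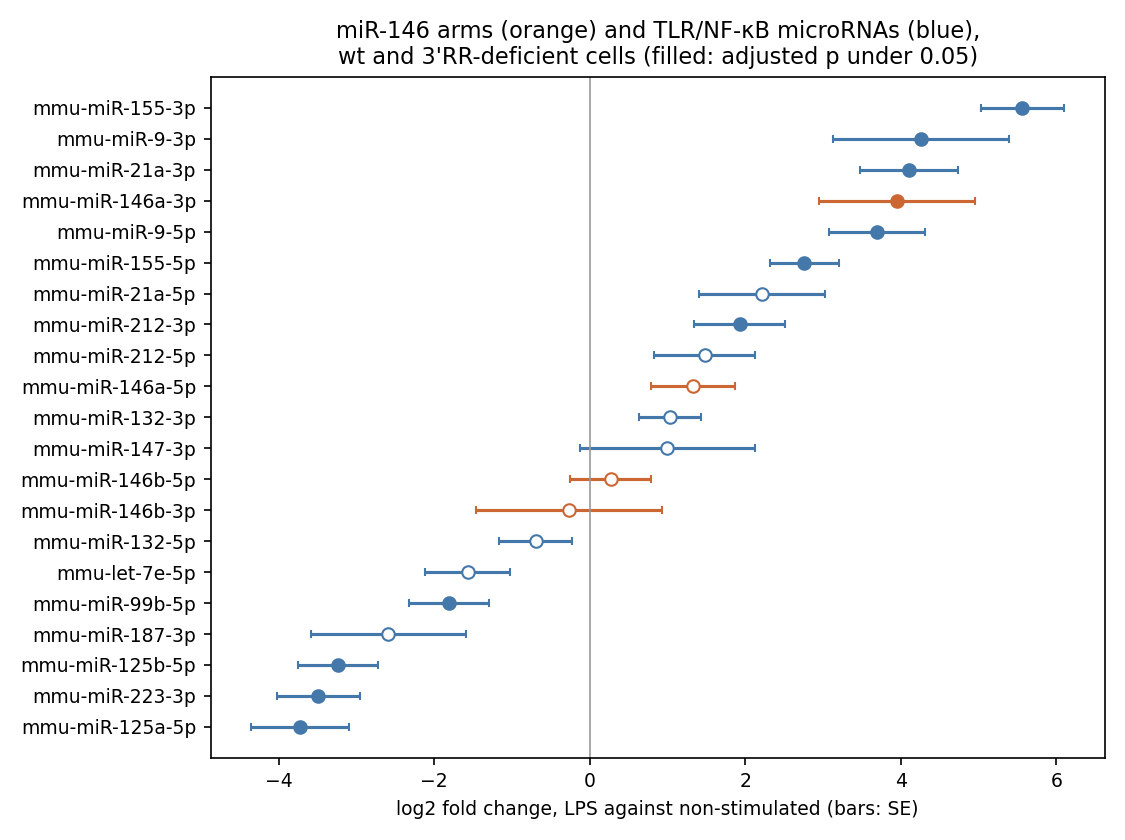
Log2 fold change of LPS against NS over wt and 3′RR-deficient cells (bars: SE) for the 4 miR-146 arms in orange and the 17 listed microRNAs in blue, filled where the adjusted p is under 0.05. miR-146a-3p (3.95) is the one filled orange point, and the miR-146b arms lie at 0.27 (5p) and -0.27 (3p).

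The share of the paralogues was compared within each library, where depth and scaling cancel. Of the reads of both 5p arms, miR-146b-5p made up 4.77% (Wilson 95% interval 4.70 to 4.84) and 3.18% (3.01 to 3.37) in wt NS cells. It made up 2.37% (2.32 to 2.42) and 2.51% (2.38 to 2.65) in 3′RR-deficient NS and 5.20% (5.14 to 5.26) in Eµ-deficient NS cells. With LPS the share was 1.48% and 1.53% in wt, 1.56% and 1.77% in 3′RR-deficient and 4.38% in Eµ-deficient cells. In wt and 3′RR-deficient cells the 4 LPS libraries were below the 4 NS libraries, while the Eµ-deficient LPS library was above 3 of those 4 NS libraries.

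The log2 ratio of miR-146a-5p to miR-146b-5p was 4.82 ± 0.54 (SD, n = 5) in NS and 5.66 ± 0.68 (SD, n = 5) in LPS libraries. The difference was 0.84 by an exact two-sided permutation test within genotypes (p = 0.0278, adjusted p = 0.0417 over 3 ratios), the p being the smallest that its 72 arrangements allow. The difference had the same sign in the 3 genotypes, at 1.41 in wt, 0.57 in 3′RR-deficient and 0.26 in Eµ-deficient cells. Without 1 LPS library of wt or 3′RR-deficient cells, the exact permutation test left an adjusted p of 0.0833. Without the second NS replicates the difference was 0.90, in a design that cannot reach the threshold.

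By genotype, the log2 ratio in 3′RR-deficient cells was above that in wt by 0.70 without LPS and differed from it by -0.14 with LPS. The difference between these values was -0.84, with an exact permutation p of 0.0556, the smallest that 36 arrangements allow, so the test could not pass 0.05. Over both conditions the 3′RR-deficient cells differed from wt by 0.28 (exact permutation p = 0.333).

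**Figure D4:**
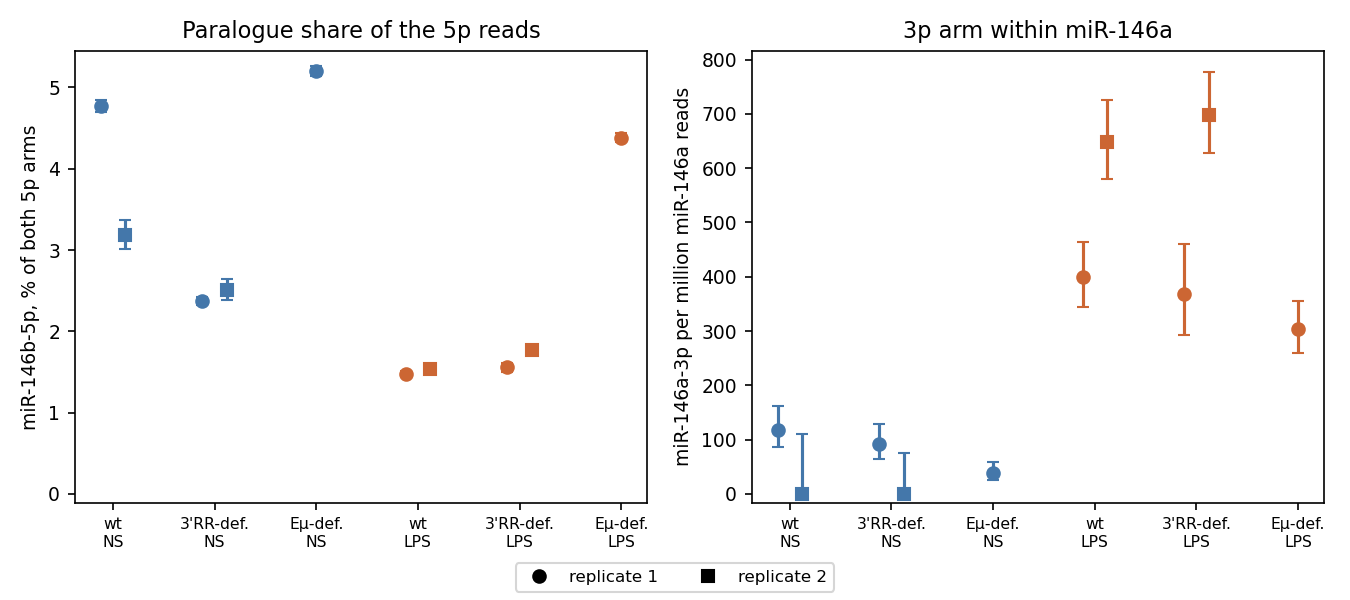
Left, the percent of 5p reads that were miR-146b-5p, and right, miR-146a-3p in RPM of the reads of both miR-146a arms, in each library (NS in blue, LPS in orange, circles for replicate 1, squares for replicate 2, bars for Wilson 95% intervals). On the left the wt and 3′RR-deficient libraries go from between 2.37 and 4.77% to between 1.48 and 1.77% with LPS and the Eµ-deficient ones from 5.20 to 4.38%, and on the right the LPS libraries (304 to 698) lie above the NS libraries (0 to 117).

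The strand balance within a hairpin was compared in the same manner. Relative to the reads of both miR-146a arms, scaled to RPM within the hairpin, the 3p arm was at 117 RPM (Wilson 95% interval 85.5 to 161) in wt NS replicate 1, 91.4 (64.4 to 130) in 3′RR-deficient NS replicate 1 and 38.3 (24.8 to 59.2) in Eµ-deficient NS cells. The second NS replicates had 0, which allows up to 85.7 in wt and 58.8 in 3′RR-deficient cells. With LPS the values were 400 and 649 in wt, 367 and 698 in 3′RR-deficient and 304 in Eµ-deficient cells. The lowest LPS library was thus above the upper interval end of every NS library.

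The log2 ratio of the 5p to the 3p arm of miR-146a (with 0.5 added to each count) was 14.76 ± 1.59 (SD, n = 5) in NS and 11.09 ± 0.53 (SD, n = 5) in LPS libraries. It differed by -3.67 (exact two-sided permutation p = 0.0278, the smallest possible, adjusted p = 0.0417). Within genotypes the difference was -3.63 in wt, -4.08 in 3′RR-deficient and -2.96 in Eµ-deficient cells. Leaving out 1 LPS library of wt or 3′RR-deficient cells raised the adjusted exact permutation p to 0.0833. With 2 in place of 0.5 added the difference was -2.84, and without the second NS replicates, where the counts of 0 are, it was -2.45. In Eµ-deficient cells miR-146a-5p was lower with LPS than without, at 44057 against 54083 CPM, while its 3p arm was higher, at 13.4 against 2.07 CPM.

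For miR-146b the strand balance moved no common way. On the same scale, per reads of both miR-146b arms, the 3p arm was at 1355 and 868 RPM in wt NS, 2787 and 17937 in 3′RR-deficient NS and 3062 in Eµ-deficient NS cells. With LPS it was at 2623 and 2665 RPM in wt, 0 (allowing up to 930) and 2783 in 3′RR-deficient and 1772 in Eµ-deficient cells. The value of 17937 rests on 24 counts in the second 3′RR-deficient NS replicate. The log2 ratio of the 5p to the 3p arm was 8.32 ± 1.55 (SD, n = 5) in NS and 9.45 ± 1.81 (SD, n = 5) in LPS libraries, a difference of 1.13 (exact permutation p = 0.583). Without the second NS replicates it was 0.62, and leaving out each library gave 0.17 (without 3′RR-deficient LPS replicate 1) to 1.57.

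Set against all 136 hairpins whose rarer arm had at least 10 counts on average, the LPS-minus-NS difference of the log2 rarer-to-major arm ratio was 3.67 for miR-146a, which ranked 2, and -1.13 for miR-146b, which ranked 114. The median over the hairpins was 0.498, and 84 of them had a positive difference. With 2 in place of 0.5 added, miR-146a was at 2.84 and again ranked 2, and without the second NS replicates, which hold its counts of 0, it was at 2.45 and ranked 7. In these alternatives, added after the data were seen, miR-146b was at -0.92 and -0.62 and ranked 112 in both. miR-146a was one of the 6 hairpins, or 4.41%, in which the rarer arm was relatively higher in each LPS library than in each NS library. miR-155, with a difference of 2.61, was another.

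**Figure D5:**
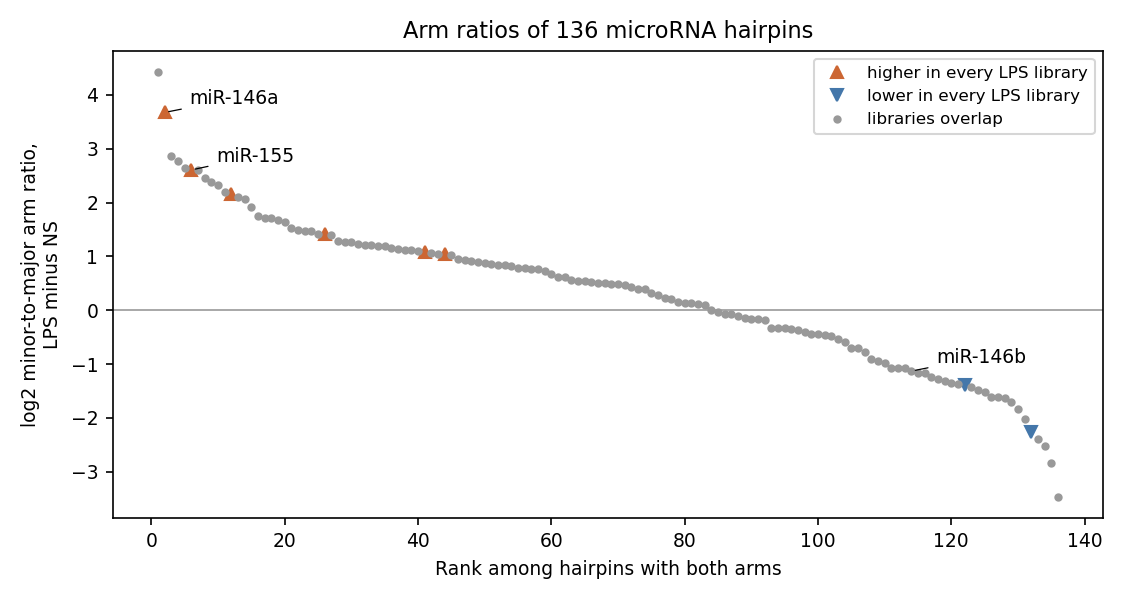
Difference of the log2 minor-to-major arm ratio between LPS and NS libraries for 136 microRNA hairpins in order of size, with orange triangles where all LPS libraries are above all NS libraries, blue triangles where they are below and grey points where they overlap. miR-146a (3.67) stands at rank 2 and miR-146b (-1.13) at rank 114; without the second NS replicates miR-146a (2.45) stands at rank 7.

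The comparison of 3′RR-deficient with wt cells asked whether deletion of this enhancer region alters the miR-146 arms. None of the 4 arms differed by edgeR in any of these comparisons. Without LPS the log2 differences were 0.49 (interval -1.29 to 2.27) for miR-146a-5p, 0.12 (-3.03 to 3.27) for miR-146a-3p, -0.40 (-2.18 to 1.39) for miR-146b-5p and 1.90 (-1.51 to 5.31) for miR-146b-3p, each with an adjusted p of 1. Leaving out each library gave -0.41 to 1.17 for miR-146a-5p, -0.66 to 1.09 for miR-146a-3p, -1.22 to 0.73 for miR-146b-5p and 1.13 to 3.72 for miR-146b-3p, so among the 4 arms the sign held in miR-146b-3p alone when a library was left out. Between same-numbered NS libraries, 3′RR-deficient against wt, miR-146a-5p was at 44817 against 36343 and 15107 against 11658 CPM, higher in both. miR-146b-3p was also higher in both, at 3.04 against 2.47 and 7.10 against 0.333 CPM, the last being 1 count. miR-146b-5p was at 1087 against 1820 and 389 against 383 CPM, and miR-146a-3p at 4.09 against 4.27 and 0 against 0 CPM, with no common direction. The replicate numbers were not taken to pair samples, and how many of all features were higher in both was not counted. In miR-146a-5p the NS libraries of the genotypes overlapped. The share of features called was 0%, with 9 features under an unadjusted p of 0.05, none of them a miR-146 arm, and 1 call by DESeq2.

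With LPS the 3′RR-deficient cells differed from wt by -0.58 (SE 0.80) for miR-146a-5p, -0.47 (interval -3.44 to 2.51) for miR-146a-3p, -0.43 (-2.22 to 1.36) for miR-146b-5p and -1.09 (-4.43 to 2.24) for miR-146b-3p, each with an edgeR adjusted p of 1. Leaving out each library gave -0.77 to -0.30 for miR-146a-5p, -1.12 to 0.06 for miR-146a-3p, -0.61 to -0.17 for miR-146b-5p and -1.25 to -0.09 for miR-146b-3p. Again 0% of the features were called, with 15 under an unadjusted p of 0.05 and 2 calls by DESeq2. The wt LPS libraries were both above the 3′RR-deficient ones in miR-146a-5p (72354 and 89625 against 45136 and 64786 CPM), a separation the fit did not call and that 16.8% of the 720 features shared in this direction. The lower 3′RR-deficient value was in replicate 1.

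Over both conditions the differences were -0.05 (interval -1.22 to 1.12), -0.20 (-2.20 to 1.81), -0.41 (-1.56 to 0.73) and 0.40 (-2.22 to 3.02) for miR-146a-5p, miR-146a-3p, miR-146b-5p and miR-146b-3p, with an edgeR adjusted p of 0.997 each and 0.139% of the features called. They were, without the second NS replicates, -0.14, -0.20, -0.38 and -0.44 in the same order, so miR-146b-3p changed sign. Leaving out each library gave -0.50 to 0.20, -1.12 to 0.33, -0.72 to 0.03 and -0.21 to 1.11, so the sign turned in all 4 arms. The intervals of the 3p arms are the widest, and none of the 4 shows that a level was the same in both genotypes. The difference of the LPS responses between 3′RR-deficient and wt cells was -1.07 (interval -3.59 to 1.45) for miR-146a-5p, -0.59 (-4.92 to 3.75) for miR-146a-3p, -0.03 (-2.56 to 2.49) for miR-146b-5p and -2.99 (-7.75 to 1.77) for miR-146b-3p. When each library was left out it went from -1.71 to -0.14 (without 3′RR-deficient NS replicate 1) for miR-146a-5p, from -1.13 to 0.82 for miR-146b-5p and from -4.77 to -1.93 for miR-146b-3p. The sign thus turned in miR-146b-5p, and also in miR-146a-3p, whose highest value was 0.24. For this difference edgeR called 0% of the features and DESeq2 called 0, with 5 under an unadjusted p of 0.05.

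The Eµ-deficient cells were compared over both conditions with wt and with 3′RR-deficient cells, which share the Eµ-deficient libraries. miR-146b-5p was at 2967 and 2020 CPM in the Eµ-deficient libraries, against 383 to 1820 CPM in wt and 389 to 1166 CPM in 3′RR-deficient cells, with no overlap (7.49% of features, as above). The log2 difference was 1.10 against wt (SE 0.61, interval -0.19 to 2.40, edgeR adjusted p = 0.516) and 1.59 against 3′RR-deficient cells (SE 0.60, interval 0.30 to 2.87, adjusted p = 0.257). Neither passed the threshold, and 1.62% and 2.02% of the 988 features were called. Without the second NS replicates both passed, at 1.06 (edgeR adjusted p = 0.0439) and 1.53 (adjusted p = 0.00490), but the share of features called was then also larger, at 7.43% and 8.59%. The difference from 3′RR-deficient cells also passed when replicate blocks were set separately for NS and LPS libraries (1.24, edgeR adjusted p = 0.00285), where 10.3% of the features were called. It passed as well with total count scaling (2.05, edgeR adjusted p = 0.0444, 3.04% of features called), GC correction (1.57, adjusted p = 0.0196, 3.34%), GC correction with those blocks (1.43, adjusted p = 0.000295, 9.73%) and the DESeq2 Wald test (1.77, adjusted p = 0.03997, 7.09%). Against wt, GC correction with those blocks called it too (1.06, edgeR adjusted p = 0.0123, 10.2%). When each library was left out, the difference was between 0.64 (without the Eµ-deficient NS library) and 1.86 (without wt NS replicate 1) against wt and between 1.19 and 2.06 against 3′RR-deficient cells. The marker sums of myeloid and erythroid microRNAs were also highest in these libraries in each condition. Their lymphocyte sum was the lowest, at 86673 CPM against at least 110530 CPM in the other NS libraries and 56247 against at least 62698 CPM in the other LPS libraries. The sum of stroma and endothelium was the highest among LPS libraries, at 956 against at most 115 CPM, of which miR-143-3p made up 807 CPM. The endothelial miR-126a-3p was lowest in that library, at 13.7 against at least 36.9 CPM in the other LPS libraries, and miR-126a-5p was within their range, at 7.08 CPM. The part of these cells in the difference was not tested.

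Against wt, the other arms differed in Eµ-deficient cells by 0.24 (interval -1.19 to 1.67, edgeR adjusted p = 0.911) for miR-146a-5p, -0.87 (SE 1.11, adjusted p = 0.817) for miR-146a-3p and 1.23 (interval -1.41 to 3.86, adjusted p = 0.762) for miR-146b-3p. Against 3′RR-deficient cells the same 3 arms differed by 0.41, -0.59 and 0.94, with an edgeR adjusted p between 0.825 and 0.874. These arms differed, without the second NS replicates, by 0.06, -1.08 and 1.16 against wt and by 0.33, -0.79 and 1.75 against 3′RR-deficient cells, and none was called by edgeR. The sign of miR-146a-5p turned when each library was left out, from -0.70 (without the Eµ-deficient NS library) to 1.18 (without the Eµ-deficient LPS library) against wt and from -0.52 to 1.14 against 3′RR-deficient cells. The same ranges were -1.56 to -0.03 and -1.23 to 0.18 for miR-146a-3p, and 0.63 to 2.02 and 0.35 to 1.58 for miR-146b-3p. The LPS response of Eµ-deficient cells minus that of the other genotypes, a comparison added after the data were seen that rests on 1 Eµ-deficient library in each condition and takes its spread from the other groups, was -1.61 (interval -4.20 to 0.98, edgeR adjusted p = 0.999) for miR-146a-5p. For miR-146a-3p it was -1.29, for miR-146b-5p -0.81 and for miR-146b-3p -1.10, each with an adjusted p of 1. Leaving out the second NS replicates, the values were -1.14, -0.53, -0.31 and -1.19 for miR-146a-5p, miR-146a-3p, miR-146b-5p and miR-146b-3p. In that test 0% of the features were called by edgeR, 44 had an unadjusted p under 0.05 and DESeq2 called 0.

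The microRNAs whose levels followed miR-146a-5p most closely were sought among 154 mature microRNAs with a mean of at least 100 CPM, by Pearson r of log2 CPM over the 10 libraries. They were miR-19b-3p (r = 0.95), miR-19a-3p (0.94), miR-148a-3p (0.94), miR-130b-3p (0.94) and miR-7a-5p (0.94). For miR-146b-5p they were miR-30b-5p (r = 0.89), miR-29b-3p (0.89), miR-3535 (0.88), miR-421-3p (0.86) and miR-362-5p (0.84), so none was common to the lists of 5. Between the 2 paralogues Pearson r was 0.71 and Spearman rho 0.41. The libraries differed in depth, and the second NS replicates stood apart from the first. These values therefore describe likeness over 10 libraries, and no p is given. What the likeness rests on was not tested.

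The NS replicates differed in each of these arms. From replicate 1 to replicate 2, log2 CPM (on the scale of the CPM above, with a prior count of 2) of miR-146a-5p differed by -1.64 in wt and -1.57 in 3′RR-deficient NS cells, and miR-146b-5p by -2.25 and -1.48. The median of the 166 features within 5 percentage points of their GC content differed by -1.96 and -1.28. miR-146b-3p, with its higher GC content, differed by -2.13 in wt and 1.15 in 3′RR-deficient cells, beside medians of 0.76 and 0.58 over 133 features. miR-146a-3p, of the same GC content as the 5p arms, differed most, by -3.94 in wt and -3.88 in 3′RR-deficient NS cells, where the second replicates had 0 counts. With LPS the replicates of miR-146a-5p differed by -0.31 in wt and 0.52 in 3′RR-deficient cells, less than in NS cells. With TMM scaling over the 8 wt and 3′RR-deficient libraries, as in their fits, the NS differences of miR-146a-5p were -1.43 and -1.62 and the LPS differences -0.51 and 0.20.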

How the data were processed

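Small RNA libraries were prepared per the labels with the NextFlex small RNA kit, and the submitters' processing notes name cutadapt 1.2.1, Bowtie2 and the mm10 build. The authors deposited 1 table of raw, not normalized read counts, with a row for each small RNA and a column for each library. The counting program and the treatment of reads that match several places are not given in the sources used here. Library totals ranged from 3482540 to 18144016 counts. Shares of single libraries carry Wilson 95% intervals, and 3 counts is the limit that a count of 0 allows.

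Counts of the microRNA class were fitted with edgeR 4.0.16 in R 4.3.3 (TMM scaling, filterByExpr, two-sided quasi-likelihood F-test, Benjamini-Hochberg adjustment over all features tested). The 8 wt and 3′RR-deficient libraries were fitted with a mean per group or with additive terms, and all 10 with additive terms or, for the difference of LPS responses of Eµ-deficient cells, with an added Eµ-by-LPS term. The estimated biological coefficient of variation was 72.4%, 69.7%, 79.0% and 75.9%. All 4 miR-146 arms passed the filter in each fit. Replicates are pools of 2 mice; p-values measure the spread between these pools. Ratios within a library were tested by exact permutation within genotypes with 0.5 added to each count. The DESeq2 1.42.0 Wald test, other scalings and filters, removal of a trend on GC content and the replicate number as a block were alternatives. The additive fit of the 8 wt and 3′RR-deficient libraries was also run on simulated counts. Those counts held no replicate difference shared by the genotypes, and recovery was required only at a variation below the estimates above. This run therefore gives no error rate for these data.

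The replicate numbers were checked for pairing: deviations of same-numbered libraries correlated with r = 0.67 between the NS groups, 0.11 between the LPS groups and from -0.28 to -0.05 across conditions, so the numbers were not taken to pair samples. Named microRNAs were the 4 arms, of the 17 listed ones up to 6 that passed in the LPS comparison over wt and 3′RR-deficient cells by p, and for each 5p arm the 5 most alike. The members and lists were chosen with earlier results of these data known. Sequences are those of RefSeq (GRCm38.p6) and annotation is GENCODE M21.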

Additional observations from a re-analysis of the deposited data

Results flagged for a closer look

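Differences between genotypes in the LPS response were listed where every library of one genotype moved one way and every library of the other the opposite way. Differences between genotypes were also listed where they had opposite signs in NS and LPS libraries, without overlap in either. Most of the listed differences rest on the single Eµ-deficient library of each condition. On the scale of log2(CPM + 0.5), miR-146a-5p was higher with LPS by 1.97 in wt and by 1.06 in 3′RR-deficient cells, and differed by -0.30 in Eµ-deficient cells. Seen by condition, Eµ-deficient cells differed from wt by 1.39 without and -0.87 with LPS, and from 3′RR-deficient cells by 1.06 and -0.30. The edgeR test of this difference, against wt and 3′RR-deficient cells together, did not pass (-1.61, adjusted p = 0.999). It rests on 1 Eµ-deficient library in each condition, assumed to vary like those of the other groups, so the p does not show that the responses were alike. miR-146b-3p differed with LPS by 1.26 in wt and -1.23 in Eµ-deficient cells, on 1 to 88 counts a library, and the pair alone was not tested. Its LPS response in Eµ-deficient cells differed from that of the other genotypes by -1.10 in edgeR (adjusted p = 1).

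The log2 ratio of miR-146a-5p to miR-146b-5p was higher in 3′RR-deficient than in wt cells by 0.70 without LPS and differed by -0.14 with LPS, with an exact permutation p of 0.0556 for the difference, the smallest the design allows. Before taking logs, the wt NS ratios were 20.0 and 30.4, so the size of the 0.70 depends on which wt replicate is used. The log2 ratio of the 5p to the 3p arm of miR-146b differed with LPS by -1.02 in wt, 3.46 in 3′RR-deficient and 0.78 in Eµ-deficient cells, and between Eµ-deficient and wt cells by -1.20 without and 0.60 with LPS. The 3′RR-deficient value includes a library with 0 counts of miR-146b-3p and the wt value a library with 1. These differences of arm ratios were not tested.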

How the results depend on the processing

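The rise of miR-146a-3p with LPS kept its direction under all alternatives. Over wt and 3′RR-deficient cells it was no longer called with all RNA classes tested together (3.00, edgeR adjusted p = 0.105). Leaving out each library gave 3.47 to 4.87, with the call lost without wt LPS replicate 1 or replicate 2. Over 3 genotypes it was not called with all RNA classes (2.77, adjusted p = 0.0603). In wt cells alone it was called with no filter (4.12), the DESeq2 Wald test (4.24), GC correction (4.21), a replicate block within culture condition (3.09) and GC correction with that block (3.46). Leaving out each library gave 3.33 to 4.34. It was then called without 3′RR-deficient NS replicate 1 (71 of 776 features called) and without replicate 2 (35 of 866). In 3′RR-deficient cells alone it was called with no filter (3.65). No fold is given where leaving out a library left a compared group with 0 counts, as for miR-146a-3p without the first NS replicate.

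miR-146a-5p over wt and 3′RR-deficient cells was called with total count scaling (1.35, adjusted p = 0.0434), a 10 CPM filter (1.38, adjusted p = 0.0416), DESeq2 (1.31, adjusted p = 0.0249) and GC correction with the replicate block within culture condition (1.14, adjusted p = 0.0104). In that order these settings called 23.6%, 37.3%, 34.3% and 24.8% of the features, beside 21.8% in the edgeR fit given above. miR-146a-5p was not called with all RNA classes (0.55, adjusted p = 0.673), that block alone (0.85, adjusted p = 0.0781), GC correction alone (0.92, adjusted p = 0.0704), no filter (1.26, adjusted p = 0.191), mature microRNAs alone (1.27, adjusted p = 0.0870), DESeq2 size factors (1.31, adjusted p = 0.0755) or without the second NS replicates (0.60, adjusted p = 0.262). Leaving out each library gave 0.92 to 1.67, called without 3′RR-deficient NS replicate 1 (151 of 776 features called). In wt alone GC correction with that block gave 1.64 (adjusted p = 0.0311). The replicate number as a replicate block gave a called 1.52 (adjusted p = 0.0462) over wt and 3′RR-deficient cells and changed no other call of an arm, but moved the features called from 5 to 27 in wt and from 7 to 11 in 3′RR-deficient cells.

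miR-146b-5p, not called in Eµ-deficient against 3′RR-deficient cells, was called with total count scaling (2.05), DESeq2 (1.77), the replicate block within culture condition (1.24), GC correction (1.57), both together (1.43) and without the second NS replicates (1.53, added after seeing the data). Against wt it was called in the last 2 of these (1.06 and 1.06). The features called in these settings were 3.04%, 7.09%, 10.3%, 3.34%, 9.73% and 8.59% against 3′RR-deficient cells, and 10.2% and 7.43% in the last 2 against wt. Its uncalled LPS difference over wt and 3′RR-deficient cells ranged from -0.54 to 0.66, so its sign is open to the setting.

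Leaving out each library, the log2 ratio of miR-146a-5p to miR-146b-5p differed by 0.68 to 0.99 and that of the miR-146a arms by -4.19 to -3.09, with an adjusted exact permutation p of 0.0417 or 0.0833 where the design could reach the threshold.

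Features called ranged from 0 to 99 in wt (5 in the report), 0 to 90 in 3′RR-deficient cells (7), 71 to 247 over both (157), 107 to 374 over 3 genotypes (186), 1 to 156 in Eµ-deficient against wt (16) and 0 to 164 against 3′RR-deficient cells (20). For 3′RR-deficient against wt they ranged from 0 to 1 in NS (0), 0 to 3 in LPS (0) and 0 to 10 over both conditions (1), and for the Eµ-deficient difference of responses from 0 to 5 (0). Leaving out the Eµ-deficient library of a condition left no test of that difference. Depth limits the 3p arms, which had at most 334 counts in a library and 0 in 3 libraries.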
